A study of Mus musculus with 12 samples.

Results

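Osteopontin, the product of Spp1, is a secreted, acidic phosphoprotein of the SIBLING family (small integrin-binding ligand N-linked glycoproteins), whose members are best known from bone and tooth matrix. It binds calcium, binds integrins through an arginine-glycine-aspartate (RGD) motif, and has been described as a ligand of CD44, a membrane glycoprotein whose main ligand is the matrix sugar hyaluronan. In mouse, the SIBLING genes lie side by side on chromosome 5 next to Sparcl1, a relative of the matrix protein gene Sparc from which the family is thought to descend. The genes described here are Spp1, Ibsp (bone sialoprotein), Mepe (matrix extracellular phosphoglycoprotein), Dmp1 (dentin matrix protein), Dspp (dentin sialophosphoprotein), Sparcl1 and Cd44, taken by symbol as 7 of the 27179 gene IDs in the count tables. They were chosen by the high level of Spp1 in these same libraries, so the levels below are a description and no test was made on them.

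The libraries hold polyadenylated RNA of RelA-/- Rela-DsRed 3T3s, made from the mouse fibroblast line NIH3T3: RelA, the p65 subunit of NF-κB, was deleted and replaced by a fusion to a red fluorescent protein. The labels name no promoter for the fusion and do not say whether the line is 1 clone. Cells sat for 2 h in microfluidic devices with 0.2 ng/mL IL-1b, 100 ng/mL LPS, 0.2 ng/mL PAM or media, with 3 samples in each of 4 groups. For the LPS, PAM and media groups, all 9 tables were identical copies of the third IL-1 table, so only the 3 IL-1 libraries were used. There is therefore no control, and nothing below shows whether IL-1 changed a gene. The libraries held 17254518, 18091073 and 18578859 counts in replicates 1, 2 and 3. The labels do not say that they came from separate cultures, so the SD between them may be technical.

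Spp1 shares with the other SIBLING genes a single RGD motif as well as their place in the genome. The stretches below show the codons around the only RGD motif of each of the 5 SIBLING genes (GENCODE M21 coding sequence, GRCm38, plus strand of chromosome 5), because that motif is the integrin-binding feature that gives the family its name. The 9 bases that encode RGD are in capitals.
Spp1: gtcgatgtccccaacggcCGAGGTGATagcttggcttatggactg
Ibsp: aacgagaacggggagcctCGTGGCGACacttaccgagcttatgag
Mepe: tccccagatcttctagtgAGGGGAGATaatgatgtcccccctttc
Dmp1: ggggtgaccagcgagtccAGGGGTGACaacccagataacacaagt
Dspp: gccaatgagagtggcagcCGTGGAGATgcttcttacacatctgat

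Each of the 5 genes had 1 such motif, and the coding sequences of Sparcl1 and Cd44 had 0. In Spp1 the motif began at codon 145 of 295 (chr5:104439481-104439489, exon 7 of 8), near the middle of the coding sequence. In Ibsp it lay near the end, at codon 293 of 324 (exon 7 of 7), and in Dmp1 at codon 350 of 503 (exon 6 of 6). Dspp had it at codon 479 of 945 (exon 5 of 5) and Mepe at codon 183 of 441 (exon 3 of 3). The 5 stretches differ in the codons that flank the motif and also in which codons spell it.

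Acidic residues, which bind calcium, made up 23.1% of the Spp1 codons, with 13.9% for aspartate and 9.15% for glutamate. Dmp1 had 28.0% acidic codons, Dspp 25.3%, Ibsp 24.1% and Sparcl1 21.4%, whereas Cd44 had 13.3% and Mepe 10.7%. Serine codons reached 36.4% in Dspp and 22.9% in Dmp1, against 17.3% in Spp1 and 8.02% in Ibsp. One form of site that the FAM20C kinase phosphorylates in secreted proteins is a serine followed, 2 residues on, by glutamate. Only this form was counted. The Spp1 coding sequence held 20 such serine codons and that of Dmp1 40, compared with 10 in the longer Dspp, 9 in Sparcl1, 8 in Ibsp, 7 in Mepe and 3 in Cd44. Spp1 and Dmp1 thus had the highest density of this pattern of the 7 genes, at 6.78% and 7.95% of codons.

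**Figure D1:**
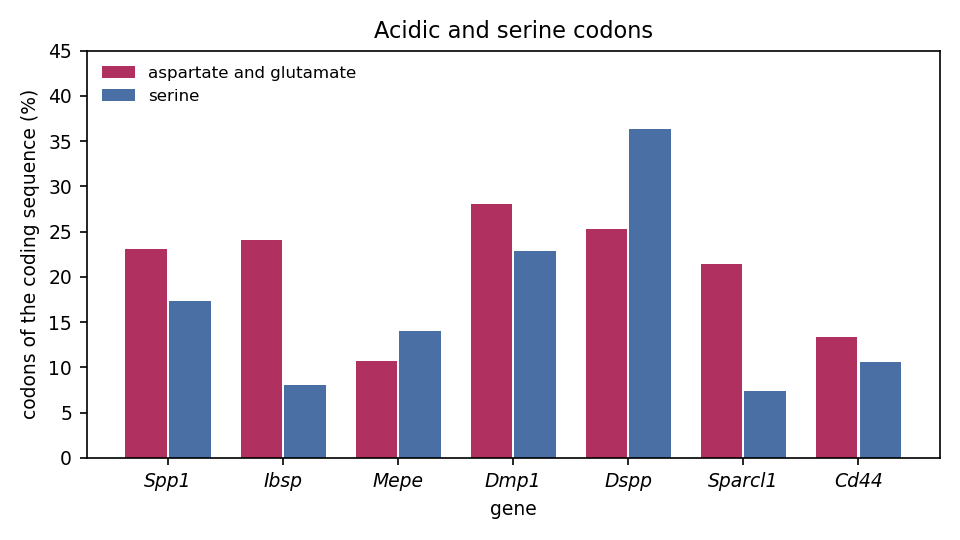
Share of aspartate and glutamate codons and of serine codons (%, bars from 0) in the longest RefSeq-matched coding sequence of each gene. Mepe and Cd44 have the lowest acidic shares, 10.7% and 13.3%, and Dspp the highest serine share, 36.4%.

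Spp1 (Entrez 20750, chr5:104435111-104441053, plus strand) was among the most abundant transcripts of these cells. It had 151659, 176864 and 170547 counts, or 8789.5, 9776 and 9179.6 CPM (counts in each 1000000) in replicates 1, 2 and 3, a mean of 9248 ± 497 CPM (SD, n = 3). The level was lowest in replicate 1 and highest in replicate 2. This was 0.925% of all counts, about 1 count in 108, and rank 2 of 20983 protein-coding genes by share of counts, between Il1rl1, the receptor for IL-33, at 10589 ± 234 CPM and the ferritin chain gene Fth1 at 7082 ± 620.0 CPM. In each of the 3 libraries Il1rl1 lay above Spp1 and Fth1 below it. The next genes in order were the leucyl-tRNA synthetase gene Lars2 at 6684 ± 283 CPM, the galectin gene Lgals1 at 6143 ± 778 CPM and the p53 inhibitor gene Mdm2 at 5712 ± 396 CPM.

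Reads came from along the transcript, so long transcripts collect more of them, and levels of different genes are compared per kb of merged exon. The Spp1 exons of GENCODE M21 merge to 1648 bases, which gives 5333, 5932 and 5570.2 CPM per kb in replicates 1, 2 and 3 (mean 5612 ± 302). On this scale Spp1 was again at rank 2, of 20729 protein-coding genes with a length. Only Lgals1 was higher, at 1.21 ± 0.110 times the level of Spp1 and in each of the 3 libraries. Spp1 stood 3.65 ± 0.118 times above Il1rl1 and 2.76 ± 0.156 times above Fth1 per kb. The rank and these ratios depend on the length used, which the SD does not cover. The longest transcript of Spp1 has 1507 bases, near its merged length. For Fth1 it has 2062 bases against 3469 merged, and for Il1rl1 5302 against 6894. The rank and these ratios were not recomputed with other lengths.

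By CPM, the spread of Spp1 between libraries was typical for an abundant gene. Its coefficient of variation (SD over mean) was 5.37%, and the median over the 2305 genes with a mean of at least 100 CPM was 5.39%. Without replicate 2 the coefficient was 3.07%. With TMM scaling factors it was 7.22%, and the median over genes was not computed on that scale.

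The 4 SIBLING neighbours of Spp1 were at or near 0. Ibsp, whose product nucleates mineral and binds integrins, had no count in any library, where a count of 0 leaves room for 0.0556 CPM over the pooled libraries (3 counts). Dspp, the source of the main dentin phosphoprotein, had 0, 1 and 0 counts in replicates 1, 2 and 3. Mepe, an osteocyte product that inhibits mineralization and phosphate retention, had 3, 1 and 0 counts. Dmp1, an osteocyte and odontoblast protein that takes part in mineralization and phosphate balance, also had 3, 1 and 0. Together the 4 genes held 9 counts of 53924450 in the 3 libraries, beside 499070 of Spp1.

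Per kb, Spp1 was at least 208753-fold higher than Ibsp, taking a floor of 3 counts over the group. It was 209258-fold higher than Dmp1 (95% interval 81729 to 768015, exact Poisson, counting error only) and 127342-fold higher than Mepe (49735 to 467366). For Dspp, with its 1 count, the ratio was 1341856 and its interval ran from 240837 to 53000493. These intervals overlap, so no order can be given among the low neighbours.

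Sparcl1, which encodes the matricellular protein hevin, had 10, 5 and 2 counts in replicates 1, 2 and 3, or 0.580, 0.276 and 0.108 CPM (mean 0.321 ± 0.239, n = 3). Over the libraries together it was at 0.315 CPM (95% interval 0.184 to 0.505, exact Poisson, counting error only). Per kb, Spp1 was 52319-fold higher than Sparcl1 (32677 to 89812). That interval lies below the ratio at the floor of Ibsp (208753) and the lower limit for Dspp (240837). It overlaps the intervals for Mepe (from 49735) and Dmp1 (from 81729). Mepe, Dmp1 and Sparcl1 each had their highest count in replicate 1. That library had the lowest total but a count for 16683 gene IDs, against 16186 and 16174 in replicates 2 and 3. The part of this in the low counts was not tested.

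Cd44 (Entrez 12505, chr2:102811141-102901669, minus strand) was abundant and even. It had 10533, 10528 and 10912 counts, or 610.4, 582 and 587 CPM in replicates 1, 2 and 3 (593 ± 15.1, n = 3), at rank 210 of the protein-coding genes. Its coefficient of variation was 2.55%, and 16.0% of the 2305 genes at 100 CPM or more varied less. Cd44 was highest in replicate 1, where Spp1 was lowest. With exons that merge to 6776 bases, it stood at 87.6 ± 2.23 CPM per kb, rank 651. Spp1 was 59.2, 69.1 and 64.3 times as high as Cd44 per kb in replicates 1, 2 and 3 (64.2 ± 4.94). This ratio was 41.3 ± 3.17 when coding lengths were used.

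GENCODE M21 lists 8 Cd44 transcripts with a complete coding sequence, from 1095 to 2340 bases, which differ in the variant exons of the stem region. Counts per gene do not separate these isoforms. Of the 5 listed splicing factors that act on such exons, 3 reached 1 CPM in every library, with Hnrnpm at 229 ± 17.8 CPM, Tra2b at 92.8 ± 1.84 CPM and Khdrbs1 (SAM68) at 80.7 ± 4.39 CPM. The epithelial regulator gene Esrp2, whose product promotes inclusion of variant exons, had 5, 1 and 1 counts, and its relative Esrp1, named after its values were seen, had 1, 0 and 1. The median of the list was 80.7 CPM, against 1.84 CPM over all 20983 protein-coding genes, 51.1% of which reached 1 CPM in every library.

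Of the 7 genes, then, 2 were at 1 CPM or more in every library and 5 were not, where 51.1% of all 20983 protein-coding genes reached that level and 22.8% had no count. A mean of 500 CPM, which both Spp1 and Cd44 exceeded, was reached by 1.25% of protein-coding genes. The genes were chosen by the level of Spp1, so this share is a description only. In bulk samples, fewer cells that express a gene and less RNA per cell cannot be told apart.

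**Figure D2:**
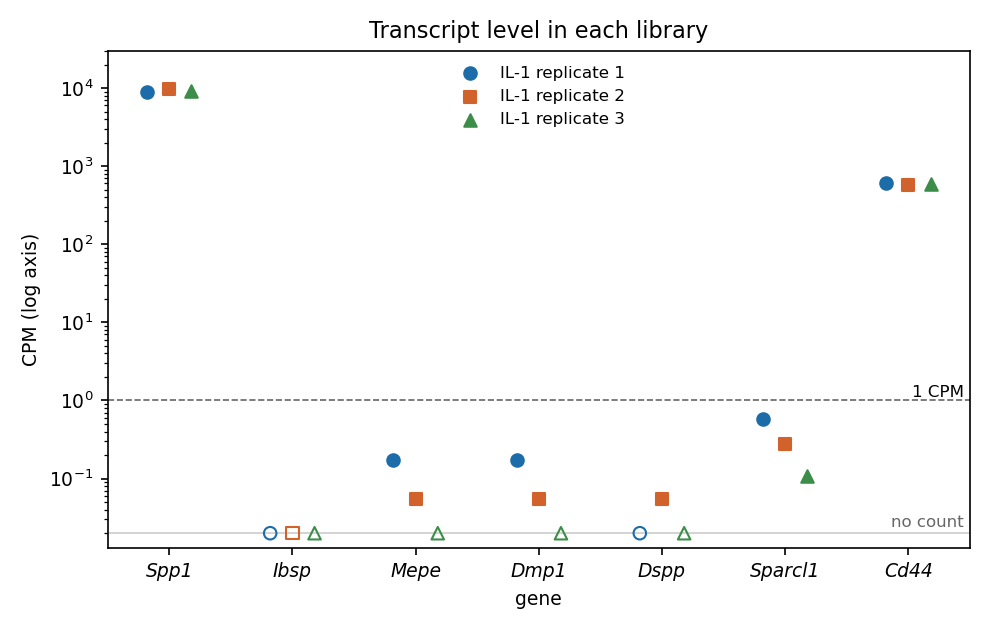
CPM (log axis) of the 7 genes in IL-1 replicates 1, 2 and 3, each a point; open symbols on the lowest line mark libraries with no count, and the dashed line is 1 CPM. Spp1 sits near 9248 CPM and Cd44 near 593, with the other 5 genes below 1 CPM in every library.

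The 6 chromosome 5 genes span 362 kb, in the order Sparcl1, Dspp, Dmp1, Ibsp, Mepe and Spp1. On the far side of Spp1, Pkd2, which encodes the cation channel polycystin-2, starts 18.9 kb after the start of Spp1 and was at 50.5 ± 0.942 CPM. Mepe, the nearest gene on the near side, starts 110 kb before it. Of the 25 other protein-coding genes that start within 1 Mb of Spp1, 11 reached 1 CPM in every library, against 51.1% of all, and 4 had no count. None of the 11 belonged to the bone matrix family. The highest by CPM was Nudt9, the gene of an ADP-ribose pyrophosphatase, at 154 ± 4.61 CPM, and Spp1 exceeded it 87.2 ± 2.12 times per kb.

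The remaining detected neighbours on the near side were Aff1, a transcription elongation scaffold gene, at 21.5 ± 4.42 CPM, Klhl8 at 7.17 ± 1.17 CPM and Hsd17b11 at 1.34 ± 0.387 CPM. On the far side stood Thoc2l at 24.5 ± 0.929 CPM and the zinc finger genes Zfp33b at 3.58 ± 0.325 CPM and Zfp951 with 361, 343 and 320 counts. The guanylate-binding protein genes Gbp9, Gbp6 and Gbp4, farther along, were at 5.68 ± 0.970, 4.52 ± 1.41 and 2.34 ± 1.19 CPM. Genes at 1 CPM or more, with others below it among them, thus lay on both sides of Spp1 and of the near-silent run from Sparcl1 to Mepe.

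**Figure D3:**
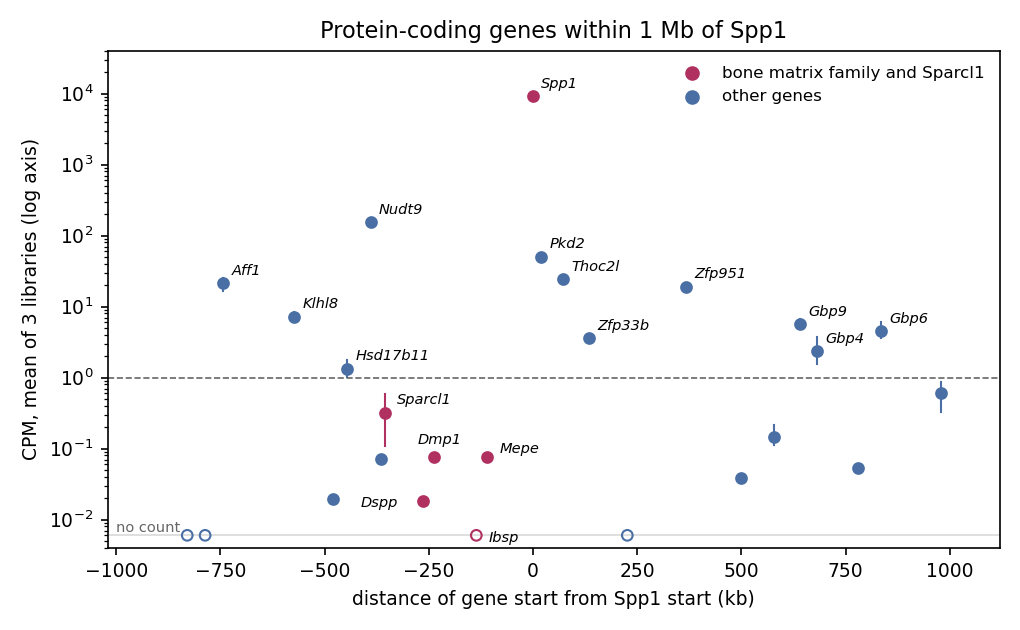
Mean CPM of 3 libraries (log axis) for protein-coding genes against the distance of their start from that of Spp1 (kb); vertical lines run from the lowest to the highest library where all had a count, open circles mark genes with no count, and the dashed line is 1 CPM. Spp1 stands above all 25 neighbours, the highest of which is Nudt9 at 154 CPM.

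RefSeq (GRCm38.p6) gives promoters for 5 of the 7 genes. The 150 bases before the start are shown for Spp1, for its neighbours Ibsp and Dmp1 (the downstream of 2 annotated starts) and for Cd44, because Spp1 differs so widely in level from neighbours of the same family. Capitals mark 3 of the 6 motifs searched, on both strands. AACCACA is the core bound by RUNX factors. ATTGG is the reverse of the CCAAT box, which binds NF-Y. TTTAAA resembles the TATA box, which places the start of transcription.
Spp1, chr5:104434961-104435110, plus strand: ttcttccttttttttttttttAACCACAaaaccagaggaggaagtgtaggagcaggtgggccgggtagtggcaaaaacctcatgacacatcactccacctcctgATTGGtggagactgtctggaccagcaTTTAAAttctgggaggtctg
Dmp1, chr5:104202467-104202616, plus strand: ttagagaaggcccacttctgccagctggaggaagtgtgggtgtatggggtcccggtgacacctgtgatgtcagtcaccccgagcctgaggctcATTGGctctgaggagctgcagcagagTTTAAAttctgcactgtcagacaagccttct
Ibsp, chr5:104299137-104299286, plus strand: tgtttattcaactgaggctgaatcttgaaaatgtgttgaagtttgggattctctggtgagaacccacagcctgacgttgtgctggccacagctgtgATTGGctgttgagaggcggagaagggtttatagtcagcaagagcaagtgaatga
Cd44, chr2:102901666-102901815, minus strand: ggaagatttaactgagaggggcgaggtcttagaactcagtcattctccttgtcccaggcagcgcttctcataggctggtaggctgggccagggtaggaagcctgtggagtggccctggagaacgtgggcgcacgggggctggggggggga

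Spp1, the most abundant of the 7, and Dmp1, with 4 counts in all, held the same 3 motifs within 250 bases before 1 of their 2 annotated starts each. The other start of Spp1 had none of the 6 motifs searched, and the other start of Dmp1 lacked AACCACA and TTTAAA. Counted from the start, AACCACA began at base -129 in Spp1 and -165 in Dmp1, ATTGG at -46 and -57, and TTTAAA at -20 and -31. Of 32851 promoters in the table, 4.40% held AACCACA, 33.8% ATTGG, 12.1% TTTAAA and 0.21% all of them. The 3 marked motifs all occur before this Spp1 start, so the last share is not a test of its likeness to Dmp1. Ibsp held ATTGG and the TATA box TATAAA, the latter in reverse (tttata, from base -28). On either strand, TATAAA was in 12.4% of promoters and also in the Spp1 and Mepe windows. Cd44 held neither ATTGG nor TATAAA, nor the RUNX core or TTTAAA. The AP-1 site TGACTCA (4.46% of promoters) was in none of the members' windows. The motif not spelled here, a κB-like core (45.8% of promoters), was in the windows of Cd44 and of the upstream Dmp1 start and not in those of Spp1. A match describes the letters only.

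Of 10 listed integrin chains that bind osteopontin, 6 reached 1 CPM in every library, a share near the 51.1% of all protein-coding genes, and the median was 7.63 CPM. Itgb1, the β1 chain shared by many integrins, was at 1038 ± 44.1 CPM, the αv chain gene Itgav at 271 ± 28.3 CPM and the β5 chain gene Itgb5 at 56.7 ± 0.871 CPM. The α5 chain gene Itga5 had 224, 175 and 201 CPM in replicates 1, 2 and 3. Per kb, Itgb1 was 2.90 ± 0.111 times as high as Cd44, while Cd44 was 2.18 ± 0.222 times as high as Itga5. Chosen after its values were seen, Itgb3, the partner of αv in the classical osteopontin receptor, had 8, 20 and 19 counts (0.864 ± 0.349 CPM), below 1 CPM in replicate 1. Per kb, Itgb1 was at 254, Itgav at 25.2 and Itgb5 at 16.0 CPM, and Itgb3 at 0.146 CPM.

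On the side of CD44, the median level of hyaluronan enzymes was 1.93 CPM, near that of all protein-coding genes (1.84 CPM), that of other hyaluronan-binding proteins 0.240 CPM and that of linkers and sheddases 89.6 CPM. Of 8 genes for hyaluronan synthesis and breakdown, 5 reached 1 CPM, against 51.1% of all protein-coding genes. The hyaluronidase gene Hyal2 was at 75.3, 73.5 and 76.4 CPM in replicates 1, 2 and 3. Cemip2 was at 12.9 ± 1.34 CPM and the hyaluronan synthase gene Has2 at 12.5 ± 0.831 CPM. Cemip, a hyaluronan-degrading factor gene, was at 2.14 ± 0.711 CPM. Of 9 hyaluronan-binding proteins other than CD44, 3 reached 1 CPM, against 51.1% of all protein-coding genes. These were Vcan (versican) at 69.2 ± 2.11 CPM, Hmmr at 50.5 ± 3.29 CPM and Tnfaip6 at 2.95 ± 0.630 CPM. Lyve1, the lymphatic hyaluronan receptor gene, and Hapln1 had no count. Per kb, Cd44 was 9.45 ± 0.580 times as high as Hmmr, the next of these binding proteins.

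All 7 listed linkers and sheddases of CD44 reached 1 CPM, where 51.1% of all protein-coding genes did. Msn (moesin) was at 484 ± 52.6 CPM and Rdx (radixin) at 211 ± 12.5 CPM, both of which tie the CD44 tail to actin. The sheddase genes Mmp14 and Adam17 were at 119.7 ± 17.8 and 89.6 ± 4.28 CPM. Per kb, Cd44 and Msn were close, with Cd44 1.15 ± 0.0914 times as high.

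Of 12 enzymes that act on SIBLING proteins, 6 were at 1 CPM or more, with a median of 1.76 CPM, both near the values over all protein-coding genes (51.1% and 1.84 CPM). Mmp9, a gelatinase gene whose product can cleave osteopontin, was at 93.2 ± 10.5 CPM, and Bmp1, whose product cleaves the DMP1 and DSPP precursors, at 89.3 ± 6.88 CPM although those substrates were near 0. Fam20c, the kinase gene, was at 15.7 ± 0.680 CPM and Phex, an osteocyte endopeptidase gene, at 13.4 ± 1.64 CPM. Mmp7 had no count.

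Among mineralization factors, 6 of 10 reached 1 CPM, a share near the 51.1% of all protein-coding genes. The median of the 10 was 37.5 CPM, against 1.84 CPM over all protein-coding genes. The pyrophosphate exporter gene Ank stood at 622 ± 11.8 CPM and Mgp, whose product inhibits calcification, at 551, 644 and 605 CPM in replicates 1, 2 and 3. Below them were the phosphate transporter gene Slc20a1 at 109 ± 6.32 CPM and Tnfrsf11b (osteoprotegerin) at 78.0 ± 16.7 CPM. The level of Spp1 per kb was 11.1 ± 0.314 times that of Mgp. This ratio depends on the length used, as the Mgp exons merge to 1187 bases and its longest transcript has 715. Chosen after its values were seen, Alpl, the alkaline phosphatase gene of mineralizing cells, had 2, 0 and 1 counts.

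Compared with other matrix genes, Spp1 led by a wide margin. Of 14 matricellular and adhesive matrix genes (median 23.3 CPM), 11 reached 1 CPM, against 51.1% of all protein-coding genes. Fn1 (fibronectin) was at 1122 ± 76.0 CPM, Ccn1 at 177 ± 42.5 CPM, Ccn4 at 168 ± 4.27 CPM and Thbs1 at 117 ± 15.0 CPM. Spp1 exceeded Fn1 58.8 ± 6.91 times per kb and the 14 genes summed 19.3 ± 3.16 times. In the SPARC family (median 0.104 CPM), 2 of 8 genes reached 1 CPM, against 51.1% of all protein-coding genes. These were Sparc at 1484 ± 25.3 CPM and Fstl1 at 355 ± 14.4 CPM, and Spock2 had no count. Per kb, Sparc was at 392 CPM and its chromosome 5 relative Sparcl1 at 0.109 CPM, and Spp1 exceeded Sparc 14.3 ± 0.820 times per kb. The Sparc exons merge to 3788 bases, against 2300 in its longest transcript.

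**Figure D4:**
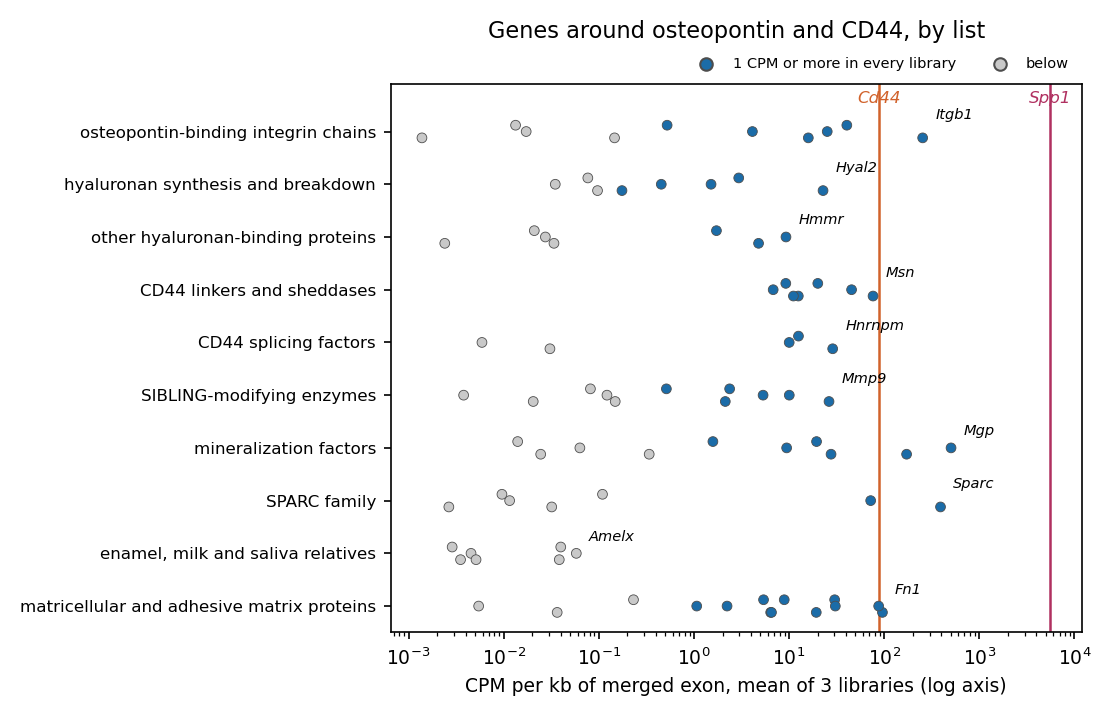
Mean CPM per kb of merged exon over 3 libraries (log axis) for the genes of 10 lists, 1 point each, blue where 1 CPM was reached in every library and grey otherwise; genes with no count are not drawn, the highest of each list is named, and vertical lines mark Cd44 (87.6) and Spp1 (5612). No listed gene reaches Spp1, the closest being Mgp.

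The cells carried fibroblast and not bone cell transcripts. Of 12 fibroblast markers, 10 reached 1 CPM, against 51.1% of all protein-coding genes. The 12 summed to between 7317 and 7666 CPM, with Vim at 3162 ± 76.6 CPM and Col1a2 at 1154 ± 9.66 CPM, and Fap had no count. Of 14 osteoblast and osteocyte markers, 3 reached 1 CPM, against the same 51.1% (summed level of the 14, 54.3 to 59.9 CPM). Among these 3 were the transcription factor genes Runx2 at 44.9 ± 2.52 CPM and Msx2 at 2.56 ± 0.825 CPM. Among the defining bone genes, the osteocalcin gene Bglap2, Sost and Fgf23 had no count, and Sp7, named after its values were seen, had 2, 0 and 0. Also named after their values were seen, the osteocalcin gene Bglap had 1, 0 and 0 counts and its relative Bglap3 had 0, 2 and 0.

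Spp1 is also a known macrophage product. Here 5 of 11 macrophage markers reached 1 CPM, a share near the 51.1% of all protein-coding genes. The median of the list was 0.166 CPM, against 1.84 CPM over all protein-coding genes. The highest were Lyz2 at 9.69 ± 2.70 CPM and Cd74 at 9.50 ± 1.70 CPM. Named after their values were seen, Ptprc had 3, 0 and 6 counts, Adgre1 4, 0 and 0, and Itgam 2, 0 and 0. All 11 summed to between 22.6 and 31.8 CPM, and Fcgr1 had no count. That sum was highest in replicate 2, as was Spp1, and lowest in replicate 3, where Spp1 was not lowest. Its part in the level of Spp1 was not tested. No epithelial (of 6) or endothelial (of 5) marker reached 1 CPM, against 51.1% of all protein-coding genes, and Krt5 and Krt18 had no count.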

How the data were processed

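Polyadenylated RNA was measured by sequencing. The authors deposited 1 table of raw counts per Entrez gene ID and sample, not scaled in any way. Reads were handled with CASAVA, STAR and featureCounts on mm10, per the submitters' processing notes. Which annotation was counted and whether strand was used is not given in the sources used here. Lysates were reverse transcribed without extraction and pre-amplified for 10 cycles, per the labels' protocols. No molecular identifiers are mentioned, so counts are reads, and intervals and the floor of 3 counts cover counting error only.

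Tables were compared byte by byte, and the 9 that equalled IL-1 replicate 3 were left out. CPM were computed from library totals; 2.14% of counts lay in IDs without a symbol. Symbols came from RefSeq (GRCm38.p6, 25275 IDs matched) and lengths and coding sequences from GENCODE M21. Detected means 1 CPM or more in every library. With 1 group there was no comparison and no p-value. TMM and relative log expression factors came from edgeR 4.0.16 (R 4.3.3), tested on simulated data; Python 3.11.15, numpy 2.4.6, pandas 2.3.3 and scipy 1.17.1 did the rest. Other settings tried were scaling factors, totals, detection level, window, length and leaving out each library. Named were the members, the 4 highest genes of each list and those with no count, and the detected neighbours. Members and lists were chosen with earlier results of these data known. Neither Spp1 nor the other SIBLING genes overlapped another annotated gene. The value of 1 marker gene is not reported here.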

Additional observations from a re-analysis of the deposited data

How the results depend on the processing

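No paired analysis was possible because the other 3 groups repeat a library of the IL-1 group. Of 51 recomputed values, 47 stayed within 1 SD of the reported value or, for counts and the coefficient of variation, within 1.5 times, and 4 did not. The ratio of Spp1 to Cd44 per kb fell from 64.2 to 58.1 with the longest transcript as length and to 41.3 with coding length, which leaves out the long untranslated parts of Cd44. Ratios of Spp1 to other genes were not recomputed with other lengths. A window of 0.5 Mb held 6 detected neighbours of 15, since it takes in fewer genes. With 1 library left out, the coefficient of variation of Spp1 ranged from 3.07% to 7.52%; it was lowest without replicate 2. The mean of Spp1 then ranged from 8985 to 9478 CPM and that of Cd44 from 585 to 599 CPM, a shift that is always under 1 SD when 1 of 3 values is dropped. TMM factors gave 9256 ± 668 CPM for Spp1 and 593 ± 4.97 CPM for Cd44. At 0.5 to 2 CPM as detection level, the same number of members, 2, was detected. Depth limits what can be said of the 5 low genes, each with 17 or fewer counts in all.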

Other observations

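The enamel, milk and saliva genes that share an origin with the SIBLING genes, most of them also on chromosome 5, had 4 counts or fewer each over the 3 libraries. None of the 10 reached 1 CPM, against 51.1% of all protein-coding genes, and together they summed to between 0.161 and 0.332 CPM per library. Ambn (ameloblastin) had 0, 4 and 0 counts in replicates 1, 2 and 3, Amelx (amelogenin) 3, 0 and 0, and Odam 0, 2 and 1. Amtn, Csn2 (β-casein) and Csn3 (κ-casein) had no count.

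By the root mean square difference of their deviations in log2(CPM + 0.5) over the 3 libraries, the protein-coding genes nearest Spp1 in pattern were Tmem98 (95.5, 106 and 99.8 CPM), the RNA polymerase subunit gene Polr2e (352, 389 and 366 CPM) and Pcmt1 (144, 160.1 and 151 CPM). Those nearest Cd44 were the prostacyclin synthase gene Ptgis (294, 281 and 284 CPM), Acap2 (151, 143 and 145 CPM) and Anapc5 (379.6, 363 and 366 CPM). With 3 libraries such likeness is common: of 2287 genes at 100 CPM or more, 24.9% lay within 0.05 (log2) of Spp1 and 33.7% within 0.05 of Cd44.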
